A study of Mus musculus with 6 samples.

Results

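The broad promoter domains are the stretches of chromatin at gene starts where trimethylation of histone H3 at lysine 4 (H3K4me3) covered kilobases in both of the lymphocyte progenitor lines of the study. They were found by merging the overlapping H3K4me3 peaks of the lines, keeping the merged regions that overlapped the 2500 bp either side of an annotated transcription start site (TSS), and adding up the peak widths of each line inside every region. The domains were selected on these measured widths: both sums had to be at least 3000 bp, and the larger under 2 times the smaller. Of 22625 merged regions, 14572 lay at promoters, and 1169 of these (8.02%) were broad in both lines. Because widths chose the domains, and the peak heights and edges come from the same peak lists, all of these values are given as a description with no test.

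H3K4me3 chromatin immunoprecipitation sequencing (ChIP-seq) was performed with the same Millipore antibody in Scid.adh.2C2 and in 230-238, with 2 ChIP libraries and 1 input library for each line. Scid.adh.2C2 is a T cell progenitor line resembling the DN3 stage (an immature thymocyte stage without CD4 or CD8), subcloned from a thymic lymphoma that arose spontaneously in a CB17-Prkdc scid mouse, and 230-238 is a mouse pre-B cell line transformed with Abelson virus. The labels give no treatment, the culture media of the lines differed, and each lineage is represented by 1 transformed line, so that lineage, line and medium cannot be told apart. The deposited lists hold 1 combined set of peaks per line, 15513 in Scid.adh.2C2 and 19604 in 230-238, with no values per library, so the spread between replicates and the sequencing depth behind a peak are unknown and no difference between the lines can be set against the spread of its libraries.

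H3K4me3 is written by the SET1 and MLL methyltransferase complexes and marks the nucleosomes next to active or poised start sites, above all at promoters rich in CpG dinucleotides. At most promoters the mark covers a few nucleosomes, while at some genes it runs far into the transcribed body, and such broad domains are known for lying over genes of cell identity and genes transcribed steadily. The lists compared here ask which promoters carry such a domain in T and B cell progenitors alike.

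The labelled cell types were checked first. All 10 T cell progenitor marker genes had a promoter peak in Scid.adh.2C2 and 3 had one in 230-238, whereas 9 of 10 B cell progenitor markers had a peak in 230-238 and 2 in Scid.adh.2C2. Any peak within 2500 bp of a start site was counted, so some may belong to a neighbouring gene. The region counted for Vpreb1 held start sites of more than a single protein-coding gene, and that of Igll1 held no start site. Of 5 markers of other cell types (Lyz2, Mpo, Gata1, Alb and Col1a1), only Col1a1 had a peak, in 230-238. None of these 25 genes carried a domain in both lines.

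The reference sequence of 3 of the widest domains of transcriptional and chromatin regulators and of the domain of Runx1 shows what kind of DNA lies under them. Each sequence is the 250 bases before a RefSeq start site inside the domain (GRCm38.p6, 5′ to 3′ on the strand of the gene) with every CpG in capitals. Ikzf1 and Arid1a are shown at 2 start sites each, because their domains ran over more than 1 promoter. The windows lie at chr11:11685675-11685924 and chr11:11689927-11690176 on the plus strand (Ikzf1), chr4:133756770-133757019 and chr4:133753986-133754235 on the minus strand (Arid1a), chr16:92697330-92697579 on the minus strand (Runx1) and chr3:88142122-88142371 on the plus strand (Mef2d).
Ikzf1 upstream start: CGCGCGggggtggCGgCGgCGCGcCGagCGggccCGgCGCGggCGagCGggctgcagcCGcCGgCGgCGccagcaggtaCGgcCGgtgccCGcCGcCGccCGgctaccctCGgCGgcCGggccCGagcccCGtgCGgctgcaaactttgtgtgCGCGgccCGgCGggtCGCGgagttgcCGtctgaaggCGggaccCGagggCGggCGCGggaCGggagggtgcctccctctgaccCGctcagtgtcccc
Ikzf1 downstream start: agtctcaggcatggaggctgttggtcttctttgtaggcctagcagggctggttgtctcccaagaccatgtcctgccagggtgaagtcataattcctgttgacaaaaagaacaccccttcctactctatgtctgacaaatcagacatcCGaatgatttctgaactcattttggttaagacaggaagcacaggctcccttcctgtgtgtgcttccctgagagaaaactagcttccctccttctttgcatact
Arid1a upstream start: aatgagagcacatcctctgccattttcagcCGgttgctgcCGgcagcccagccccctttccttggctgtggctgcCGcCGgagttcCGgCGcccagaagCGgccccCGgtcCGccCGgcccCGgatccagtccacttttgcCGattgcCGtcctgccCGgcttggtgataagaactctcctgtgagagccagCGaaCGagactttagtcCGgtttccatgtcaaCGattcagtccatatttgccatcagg
Arid1a downstream start: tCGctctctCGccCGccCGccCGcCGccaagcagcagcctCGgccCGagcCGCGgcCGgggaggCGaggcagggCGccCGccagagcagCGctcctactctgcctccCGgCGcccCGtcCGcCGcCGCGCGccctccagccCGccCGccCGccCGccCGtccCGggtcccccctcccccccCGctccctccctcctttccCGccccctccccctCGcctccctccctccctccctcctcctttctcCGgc
Runx1: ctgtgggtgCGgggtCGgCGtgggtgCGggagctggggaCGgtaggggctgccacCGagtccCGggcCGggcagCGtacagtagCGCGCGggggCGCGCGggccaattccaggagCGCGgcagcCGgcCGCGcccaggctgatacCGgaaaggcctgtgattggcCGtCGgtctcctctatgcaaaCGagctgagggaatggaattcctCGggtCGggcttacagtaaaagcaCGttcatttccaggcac
Mef2d: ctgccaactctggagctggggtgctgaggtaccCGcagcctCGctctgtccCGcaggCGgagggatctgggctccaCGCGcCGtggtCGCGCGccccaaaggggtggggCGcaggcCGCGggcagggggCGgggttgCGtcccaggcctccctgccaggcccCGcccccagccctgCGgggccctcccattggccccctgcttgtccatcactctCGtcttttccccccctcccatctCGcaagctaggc
The upstream Ikzf1 window held 44 CpG dinucleotides and the downstream window held 1. A Scid.adh.2C2 peak covered the whole downstream window, while in 230-238 the gap between the peaks overlapped part of it. The Arid1a windows held 18 and 33, the Runx1 window 27 and the Mef2d window 19. The CpG-rich and the CpG-poor promoter of Ikzf1 thus lay under one domain.

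The widest domain by the smaller of the sums was that of Ikzf1, which encodes the zinc finger factor Ikaros that B and T cell development both need. It reached 11235 bp in Scid.adh.2C2 and 11219 bp in 230-238 and was the only domain of at least 10000 bp in both lines (chr11:11684697-11696289). In Scid.adh.2C2 it consisted of a peak of 8409 bp followed by peaks of 1316 and 1510 bp, and in 230-238 of peaks of 4934 and 6285 bp. At the highest peak, H3K4me3 was enriched 34.0-fold over background in Scid.adh.2C2 and 33.1-fold in 230-238. The domain began 306 bp before the most upstream start site in Scid.adh.2C2 and 58 bp before it in 230-238, and ran 11280 and 11286 bp past it, so that intron sequence made up 88.5% of the region and exons 11.5%. The outer edges of the lines lay close together, although the breaks between peaks fell at different places.

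The second widest domain lay at Setd1b (chr5:123135770-123145342), a catalytic subunit of the SET1 complexes that write H3K4me3, with 9229 bp in Scid.adh.2C2 and 9192 bp in 230-238, a single peak in each line. Unlike at Ikzf1, the larger share of this domain lay before the start site of the gene, 6079 and 6423 bp against 3149 and 2768 bp after it. That upstream sequence lay in other annotated genes. The region held 10 annotated start sites, 2 of them of Setd1b, and no intergenic sequence. Arid1a, a DNA-binding subunit of the BAF nucleosome remodelling complex, carried 7957 and 8737 bp in Scid.adh.2C2 and 230-238, and Arid2, of the related PBAF complex, 7489 and 7293 bp. At Mef2d, a MADS box transcription factor gene, the sum was 7172 bp in Scid.adh.2C2 and 13832 bp in 230-238, the widest of any domain in that line and 1.93 times as wide.

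Of the other 7 of the 12 widest domains, 4 lay at single protein-coding genes. Tnrc18 had 8300 and 9246 bp, Scd2, a stearoyl-CoA desaturase, 7297 and 9386 bp, Tsc22d2 7272 and 8285 bp, and Zcchc2 7009 and 8284 bp, in Scid.adh.2C2 and 230-238. Another pair spanned several genes, namely Ldb1 (the LIM domain binding cofactor) with Pprc1, 9296 and 8395 bp, and the ribosomal protein gene Rpl23a with Nek8 and Tlcd1, 8322 and 8670 bp. The last lay at Neat1, the long non-coding RNA on which nuclear paraspeckles form, with 8270 and 8221 bp.

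**Figure D1:**
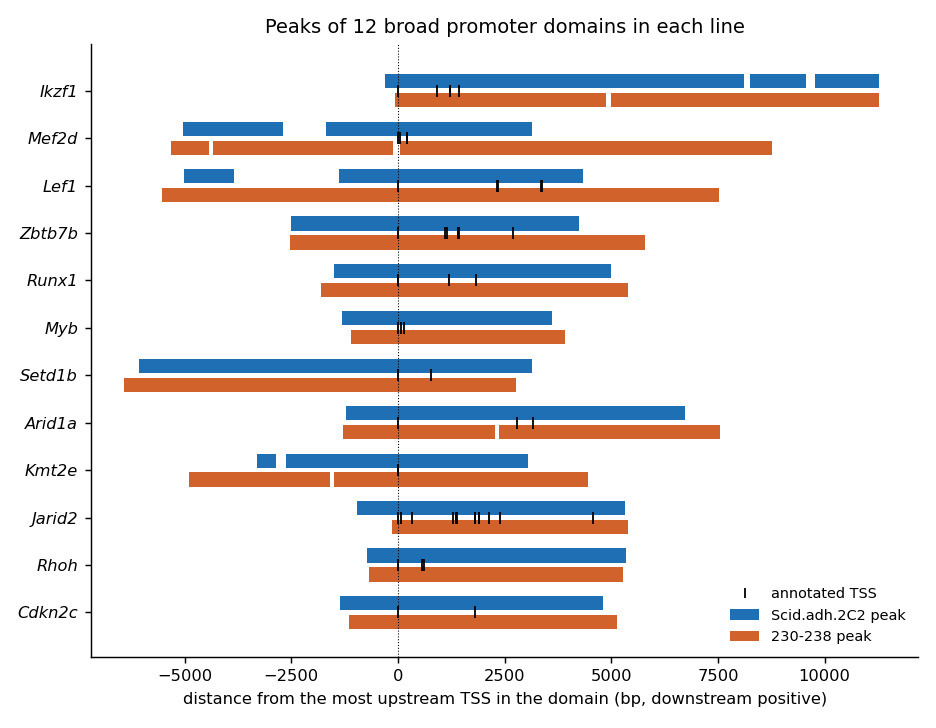
Peaks of 12 broad promoter domains in each line, drawn by distance in bp from the most upstream annotated start site of the gene (downstream positive); bars are peaks of Scid.adh.2C2 (blue, upper) and 230-238 (orange, lower), and ticks are annotated start sites. The Ikzf1 domain has nearly the same outer edges in both lines, while Mef2d, Lef1 and Kmt2e extend farther in 230-238.

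Over all 1169 domains, the summed width had a median of 3600 bp in Scid.adh.2C2 (quartiles 3247 and 4200, range 3000 to 11235 bp) and 4109 bp in 230-238 (quartiles 3547 and 4940, range 3002 to 13832 bp). The sum was larger in 230-238 in 893 domains (76.4%), with a median log2 ratio of 230-238 to Scid.adh.2C2 of 0.14. This excess was not particular to the domains, since 5572 of the 7865 shared promoter regions of similar but lower width (70.8%) were also wider in 230-238. Sums of at least 4000 bp in both lines were reached by 329 domains, of at least 5000 bp by 102 and of at least 6000 bp by 35. Widths in the lines followed each other across domains with a Spearman rho of 0.60 (n = 1169), a value that the limit on their ratio helped to set.

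The limits of the rule cut through a continuous distribution. The domains just inside the width limit were those of Fau and Mrpl49 (3000 bp in Scid.adh.2C2 and 3180 bp in 230-238), Lin54 (3001 and 3047 bp) and Cwc27 and Srek1ip1 (3001 and 3584 bp), and just outside were Ubr2 (3116 and 2999 bp), Atp13a1 and Zfp866 (3128 and 2999 bp) and Fahd1 and Hagh (2998 and 3168 bp). At the ratio limit, Fem1a (1.98 times wider in 230-238), Eno3 and Pfn1 (1.98) and Luc7l3 (1.96) were inside, and Rap1a (2.01) and Gin1 and Ppip5k2 (2.03) outside. The ratio removed 20 of 1189 promoter regions that had 3000 bp or more in both lines.

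How far breadth was shared depended on the line taken as the starting point. Of the 1501 promoter regions with at least 3000 bp in Scid.adh.2C2, 1169 (77.9%) were domains in both lines, and 135 had no peak in 230-238. Of the 2820 such regions in 230-238, 1169 (41.5%) were domains in both lines, 1242 had a peak under 3000 bp in Scid.adh.2C2 and 389 had none. The 230-238 list as a whole covered 35859120 bp against 25804895 bp in Scid.adh.2C2, and the domains took up 14.4% and 17.7% of those totals.

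**Figure D2:**
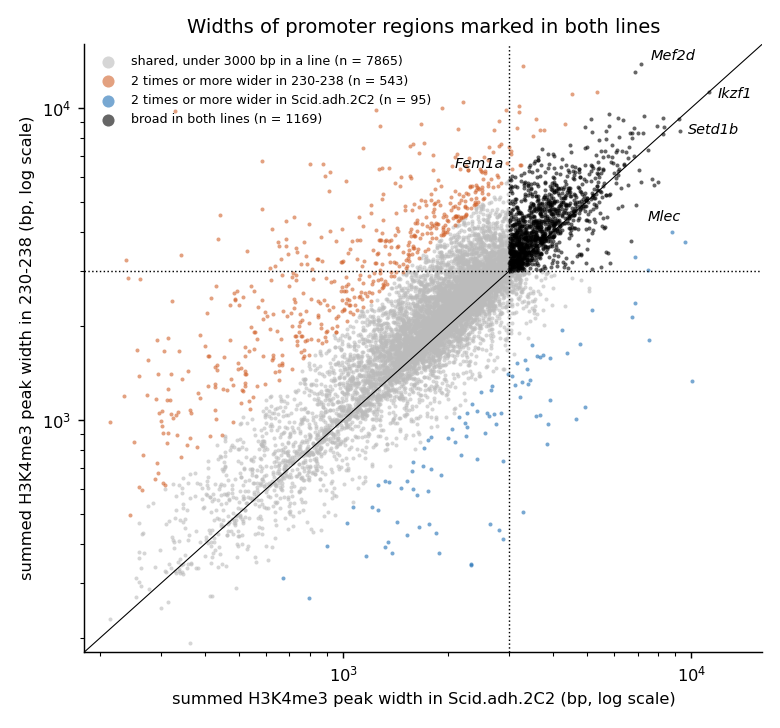
Summed H3K4me3 peak width in Scid.adh.2C2 (horizontal) and 230-238 (vertical), both in bp on log scales, for every promoter region with a peak in both lines; dotted lines mark 3000 bp and the diagonal equal width. The 1169 broad domains (black) continue the cloud of the 7865 narrower regions (grey) without a gap, and most lie above the diagonal.

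The domains were wide without being much higher. The highest fold enrichment over background in a domain had a median of 28.8 in Scid.adh.2C2 and 23.03 in 230-238, against 25.6 and 20.5 at the 7865 narrower shared regions. Within the domains, width and fold enrichment were nearly unrelated, with a Spearman rho of 0.05 in Scid.adh.2C2 and 0.04 in 230-238 (n = 1169). The medians over the 560 domains with a smaller sum of 3000 to 3500 bp were 28.4 and 22.8, and over the 35 domains of 6000 bp or more they were 31.0 and 23.1. The fold enrichment of one line told little about that of the other, with a Spearman rho of 0.15.

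The tallest domains were different in each line. In Scid.adh.2C2 the highest fold enrichments stood at Eno3 and Pfn1 (49.7, against 20.2 in 230-238), Mlec (49.5 against 22.2), the small nucleolar RNA host gene Snhg15 (47.6 against 15.7), Ankmy2 and Bzw2 (47.5 against 26.4) and Trim27 (46.5 against 12.2). In 230-238 they stood at Hk1, the gene of hexokinase 1 (39.3, against 23.01 in Scid.adh.2C2), Larp1b (37.4 against 29.6), Adhfe1 and Rrs1 (37.1 against 21.8), Fv1 and Miip (36.5 against 25.6) and Mms19 and Ubtd1 (36.2 against 43.6). Of these 10, only Mms19 and Ubtd1 were higher in the other line, and none was among the 12 widest. Each was picked for its height in 1 line, a choice that by itself favours a lower value in the other. The peak lists also give a reproducibility score of up to 1000. In Scid.adh.2C2 it was lower at Eno3 and Pfn1 (872), Snhg15 (583) and Trim27 (589), and in 230-238 at Hk1 (563). Of all domains, 95.5% scored 1000 in both lines.

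Domains were more often broken up than narrower regions. In 750 domains (64.2%) each line had a single peak, against 7028 of 7865 narrower regions (89.4%). The rule adds up the widths of separate peaks, and a longer region has more room for breaks. This contrast can therefore not be told apart from the selection. A single peak covered the domain in 1016 domains in Scid.adh.2C2 and in 870 in 230-238. The highest summits of the lines lay a median of 101 bp apart and within 1000 bp of each other in 79.6% of domains, against 50 bp and 96.9% at the narrower regions, which offer less room for them to part.

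Domains extended mostly into the gene. For the 829 domains that held the start sites of exactly 1 protein-coding gene, positions were measured from the most upstream of them. The peaks began a median of 1073 bp before this site in Scid.adh.2C2 and 1163 bp in 230-238, and ended 2590 and 3081 bp after it. The downstream reach exceeded the upstream reach in 755 domains in Scid.adh.2C2 (91.1%) and in 759 in 230-238 (91.6%), about the shares of the 5729 narrower single-gene regions (91.4% and 91.6%), in which the medians were 572 and 614 bp upstream and 1335 and 1521 bp downstream. With this reference site the domains were longer than the narrower regions on both sides.

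The reference point mattered for that placement. Taking the most downstream start site instead, a choice made after the data were seen, the downstream reach was the longer in 59.8% of domains in Scid.adh.2C2 and 65.5% in 230-238, against 69.7% and 72.8% of narrower regions. In the 147 domains where the gene had 1 annotated start site inside, it was the longer in 89.1% and 87.8%, against 83.4% in both lines for the 1088 narrower regions of that kind, with domain medians of 1103 and 1189 bp upstream and 2579 and 2873 bp downstream. Under the most upstream site, the additional width of 230-238 lay mostly downstream. Its downstream edge was farther into the gene in 655 of 829 domains, with a median difference of 230 bp. The upstream edges differed by a median of 23 bp. The narrower regions leaned the same way, with 4205 of 5729 farther into the gene in 230-238. Their median differences were 118 bp downstream and 9 bp upstream.

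Peaks did not cover the start sites evenly. At the start site itself 97.8% of single-gene domains had a Scid.adh.2C2 peak and 91.3% a 230-238 peak, and 100 bp before it 92.6% and 84.3%. At 1000 bp after it the values were 98.8% and 99.2%, and at 3000 bp after it 32.0% and 51.4%. The share covered in 230-238 was lower at 100 bp than at 200 bp before the start (84.3% against 90.0%), a dip that was absent in Scid.adh.2C2 (92.6% at both).

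**Figure D3:**
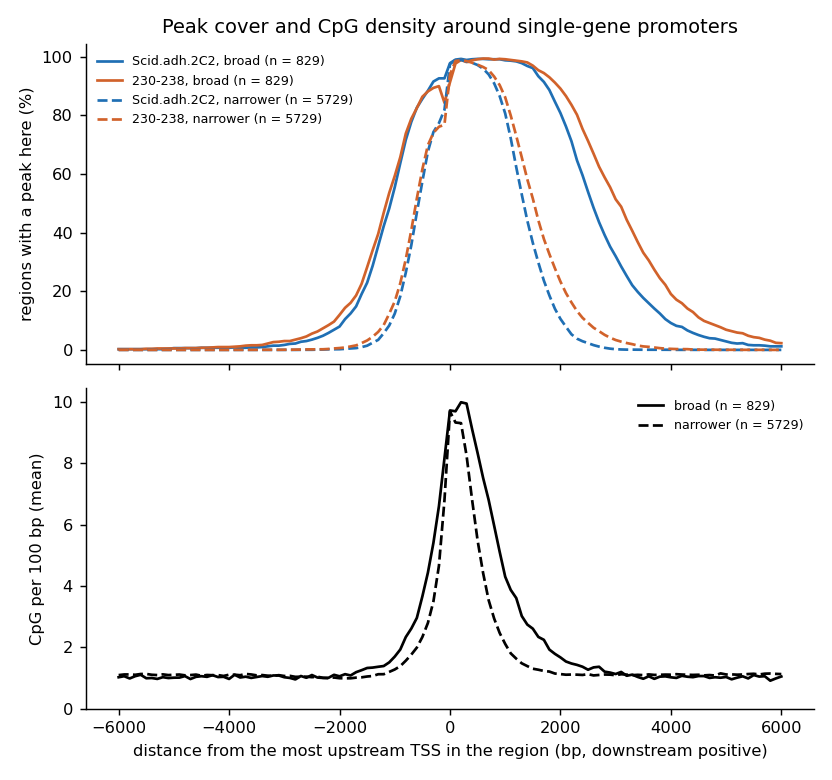
Share of regions with a peak (upper panel, percent) and mean number of CpG dinucleotides per 100 bp (lower panel) by distance from the most upstream start site in bp, for 829 broad domains (solid) and 5729 narrower shared regions (dashed) with 1 protein-coding gene, in Scid.adh.2C2 (blue) and 230-238 (orange). The broad domains extend past the narrower regions on both sides and have a wider CpG peak of similar height.

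CpG content followed breadth in extent rather than in density. CpG island sequence, taken as windows of 200 bp with at least 50% G and C and an observed to expected CpG ratio above 0.6, made up a median of 1574 bp of a domain and 849 bp of a narrower region, which was 35.7% and 39.6% of the region. It was present in 97.8% of domains and 91.6% of narrower regions. The CpG observed to expected ratio over the whole region was 0.578 against 0.558 in the median, and the share of G and C 50.7% against 51.2%. Around the start of single-gene promoters, CpG density peaked at similar heights (9.72 and 9.69 per 100 bp at the start site) but was 4.30 against 2.11 per 100 bp at 1000 bp downstream. Across domains the smaller sum rose with the length of island sequence with a Spearman rho of 0.26 (n = 1169), and the median island length was 1450.5 bp for sums of 3000 to 3500 bp and 2706 bp for sums of 6000 bp or more. Island sequence was counted only inside the region, so a longer region can hold more of it. With the observed to expected ratio, the smaller sum had a Spearman rho of -0.085.

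Individual domains departed from this. The domain of Tnrc18 held 7691 bp of island sequence and that of Arid2 had an observed to expected ratio of 0.857, whereas the domain of Mef2d had a ratio of 0.296, that of Scd2 0.299 and that of Neat1 0.305. The Ikzf1 domain, the widest by the smaller sum, held 1570 bp of island sequence, close to the median.

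Wide domains met more start sites. Start sites of 2 protein-coding genes lay inside 280 domains (24.0%) and 756 narrower regions (9.61%), and start sites on both strands inside 278 domains (23.8%) and 681 narrower regions (8.66%). A longer region is more likely to hold any feature, so these shares cannot be told apart from the lengths. In 42 domains (3.59%) no protein-coding start site lay inside, against 17.2% of narrower regions, and 26 domains had none within 2500 bp. In 10 domains (0.86%) no start site of any gene lay inside, against 13.3% of narrower regions. These shares likewise cannot be told apart from the lengths. Protein-coding genes at a domain had a median length of 24567.5 bp, genes at narrower shared regions 22120.5 bp and all protein-coding genes 17403 bp. Domains took 5.54% of the promoter regions on chromosome 4 and 10.9% on chromosome 3, the lowest and highest share of any chromosome other than Y, which had none among 4 regions.

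Motif shares in promoter sequence at the domains were near those of the narrower regions for GGGCGG and lower for TATAAA, CCGGAAGT and CCAAT. In windows of 250 bases before to 50 after a RefSeq start, searched on both strands, GGGCGG (the core bound by SP factors) was found in 70.5% of 1436 windows in domains, 68.5% of 6317 windows in narrower regions and 46.2% of all 21238 windows. TATAAA was found in 4.25%, 5.38% and 12.6%. The ETS letters CCGGAAGT were found in 9.19% of domain windows, 11.8% of narrower windows and 5.15% of all, and CCAAT in 33.8%, 40.3% and 38.2%. The windows in domains come from 1157 genes, some with several windows that overlap, and the motifs may overlap each other.

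Genes were then assigned to a domain when the 2500 bp either side of one of their start sites overlapped it. Of 21951 protein-coding genes, 1512 (6.89%) were at a domain, and of the 9242 with a promoter region that had peaks in both lines, the same 1512 made up 16.4%. These are the background shares for the gene lists, which were not tested. A wide region reaches more start sites than a narrow one, so a gene can also be counted for a domain centred on its neighbour.

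Lymphoid transcription factors were among the more often marked. Of 68 genes, 19 (27.9%) were at a domain, which was 43.2% of the 44 with a shared region. The widest, after Ikzf1 and Mef2d, were Lef1, the effector of Wnt signalling in early lymphocytes, with 6898 bp in Scid.adh.2C2 and 13050 bp in 230-238, and Zbtb7b, the CD4 lineage factor ThPOK, with 6735 and 8307 bp. Runx1, a master regulator of blood formation, had 6484 and 7209 bp, a single peak in each line with summits 1811 and 1805 bp after the most upstream start. Myb, needed by B and T cell progenitors, had 4926 and 4995 bp.

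Of the ETS family genes in the list, 4 were at a domain, while Ets1, Ets2, Erg, Spi1 and Spib were not. Elf1 had 5176 bp in Scid.adh.2C2 and 5168 bp in 230-238, Fli1 3932 and 3929 bp, Elf2 3570 and 3613 bp, and Gabpa 3453 and 3614 bp. Mef2a had 3088 and 3116 bp and Zeb1, a zinc finger repressor, 3190 and 3169 bp. Klf13, a Kruppel-like factor, had 3496 and 4023 bp.

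Other members differed more. Notch1, the receptor that commits progenitors to the T lineage, had 5174 bp in Scid.adh.2C2 and 3043 bp in 230-238, and its target Hes1 5290 and 4301 bp. Id2, an inhibitor of E proteins, had 4803 and 3366 bp and Tcf12, the E protein HEB, 4226 and 3447 bp. These 4 domains were wider in Scid.adh.2C2, while Irf2, an interferon regulatory factor, with 4332 and 5820 bp, and Bcl6, a repressor of germinal centre B cells, with 3060 and 5325 bp, were wider in 230-238. In all, 11 of the 19 were wider in 230-238, against 76.4% of all domains.

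More of these factors were broad in 1 line than in both, which was also so of all promoter regions. Of all promoter regions, 1501 had 3000 bp or more in Scid.adh.2C2, 2820 in 230-238 and 1189 in both. Of 51 factors with 3000 bp or more in a line, 20 had it in both, 9 in Scid.adh.2C2 only and 22 in 230-238 only. The ratio limit left Foxo1 out of the 20 (3767 and 8474 bp). The T lineage factors Gata3 and Bcl11b had 9343 and 9793 bp in Scid.adh.2C2 and no promoter peak in 230-238, and Tcf7 had 10029 bp against 1332 bp. In 230-238, Irf8 had 10000 bp, Bcl11a 9498 bp, Mef2c 9439 bp, Myc 6600 bp, Ebf1 6457 bp and Pax5 5848 bp, all without a promoter peak in Scid.adh.2C2.

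**Figure D4:**
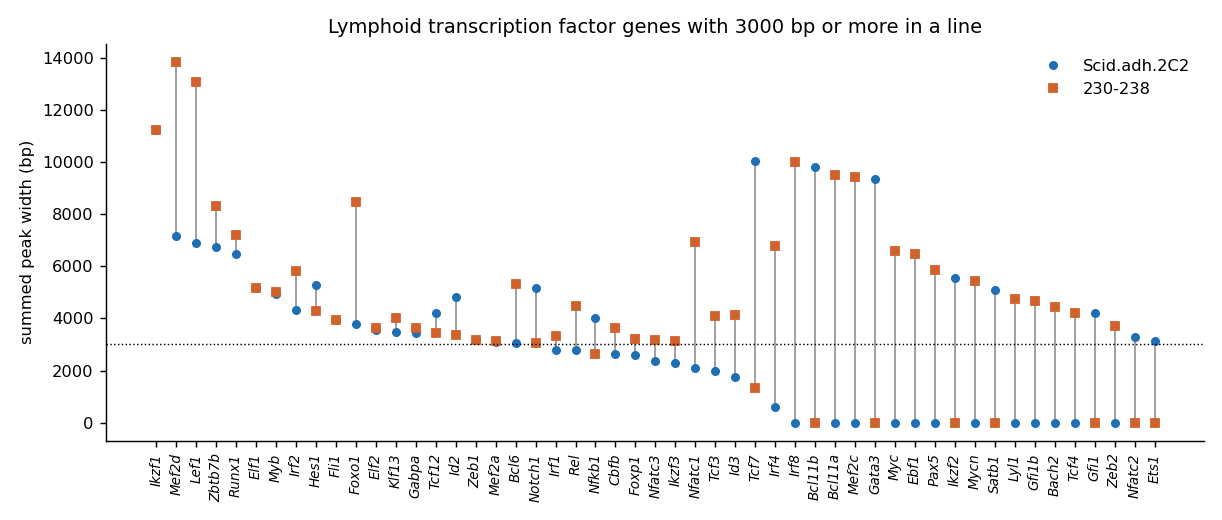
Summed peak width in bp in Scid.adh.2C2 (blue circles) and 230-238 (orange squares) at the promoters of the 51 lymphoid transcription factor genes with 3000 bp or more in a line, ordered by the smaller sum; 0 stands for no promoter peak and the dotted line for 3000 bp. Ikzf1 is widest by the smaller sum, Mef2d and Lef1 are wider than it in 230-238, and Tcf7, Irf8, Bcl11b, Bcl11a, Mef2c and Gata3 are wide in a single line.

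Genes of chromatin regulation were at domains in 27 of 71 cases (38.0%, and 41.5% of the 65 with a shared region), each at a domain of its own. Beside Setd1b, Arid1a and Arid2, the widest was at Kdm6b, an H3K27 demethylase, with 6849 bp in Scid.adh.2C2 and 7017 bp in 230-238. No annotated start site lay inside the Kdm6b domain. Kmt2e, of the MLL family, had 6135 and 9269 bp and Jarid2, a PRC2 cofactor, 6276 and 5536 bp, both named after their values were seen. The medians over the 27 were 3938 and 4579 bp, with 20 wider in 230-238, against 76.4% of all domains. The highest fold enrichment had a median of 28.7 in Scid.adh.2C2 and 19.2 in 230-238, against 28.8 and 23.03 over all domains.

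Splicing and hnRNP proteins had the highest share of any list, with 18 of 36 genes at a domain (50.0%, and 56.3% of 32 with a shared region). Hnrnpa2b1 had 5782 bp in Scid.adh.2C2 and 8758 bp in 230-238, Hnrnpa1 5587 and 6342 bp, the SR protein gene Srsf2 5564 and 6965 bp, and Hnrnpd 5017 and 7492 bp. In 16 of the 18 the domain was wider in 230-238, as in 76.4% of all domains.

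Of 76 cytosolic ribosomal protein genes, 34 (44.7%, and 48.6% of 70) were at one of 33 domains. Rpl23a lay in the domain of 8322 bp in Scid.adh.2C2 and 8670 bp in 230-238 named above, and Rpl7 had 4847 and 5687 bp. Their medians, 3560 and 4002 bp, were close to those of all domains, but the fold enrichment was higher, with medians of 34.5 in Scid.adh.2C2 and 28.0 in 230-238. Over all list genes with a shared region, the median widths were 3002 bp in Scid.adh.2C2 and 3662 bp in 230-238, against 2176 and 2479 bp over all protein-coding genes with one.

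Cell cycle genes were at domains in 15 of 47 cases (31.9%, and 35.7% of 42), and all 15 were wider in 230-238, against 76.4% of all domains, with medians of 3633 bp in Scid.adh.2C2 and 5392 bp in 230-238. Cdkn2c, the CDK4 and CDK6 inhibitor p18, had nearly equal sums of 6154 and 6263 bp. Its target Cdk6 had 4740 and 6380 bp, the D-type cyclin Ccnd1 4741 and 6233 bp, and Cdk12, which phosphorylates RNA polymerase II, 5091 and 6112 bp.

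Immediate early and feedback genes, which respond quickly to signals, were at domains in 12 of 51 cases (23.5%, and 34.3% of 35). The AP-1 gene Junb had 5676 bp in Scid.adh.2C2 and 8416 bp in 230-238, the cytokine signalling inhibitor Socs3 5326 and 7049 bp, the clock gene Per1 4782 and 5983 bp, and the antiproliferative Btg1 5253 and 4411 bp. No annotated start site lay inside the Btg1 domain. In this list 13 genes had a shared region 2 times or more wider in 230-238 and 14 had a peak in 230-238 only, against 0 and 0 for Scid.adh.2C2. All protein-coding genes leaned the same way, with 428 wider in 230-238 against 74 wider in Scid.adh.2C2, and 1285 with a peak in 230-238 only against 714 in Scid.adh.2C2 only.

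In the Bcl2 family and p53 axis, 5 of 26 genes (19.2%, and 23.8% of 21) were at a domain. Trp53 had 5621 bp in Scid.adh.2C2 and 5720 bp in 230-238, the proapoptotic Bbc3 (Puma) 5685 and 5257 bp, Bmf 3871 and 4841 bp, and the survival factor Mcl1 3582 and 4337 bp. Of 50 genes of signalling kinases, phosphatases and adaptors of lymphocytes, 7 (14.0%) were at a domain, and their share of the 44 with a shared region, 15.9%, was near the background of 16.4%. These included Rhoh, a haematopoietic GTPase, with 6076 and 5962 bp, the Src family inhibitor Csk with 4905 and 5197 bp, and Rasa1 with 4188 and 4880 bp. Of 40 developmental transcription factors of other tissues none was at a domain, and 36 had no promoter peak in either line.

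**Figure D5:**
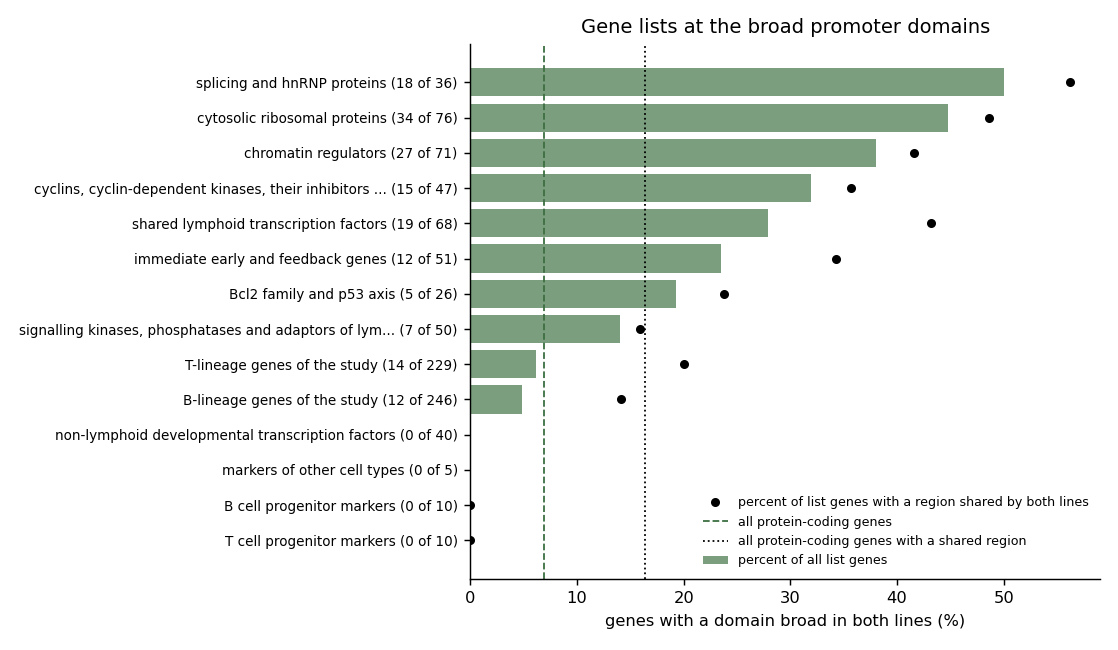
Percent of the genes of each list at a domain broad in both lines, of all its genes (bars) and of those with a promoter region shared by the lines (points); the dashed and dotted lines give the same for all protein-coding genes (6.89% and 16.4%), and counts stand beside the names. Splicing, ribosomal and chromatin genes stand highest, and the lineage lists of the study lie near the lines.

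Genes that the study had listed as restricted to the B or the T lineage were at a shared domain at shares near the background, with 12 of 246 B-lineage genes (4.88%, and 14.1% of 85 with a shared region) and 14 of 229 T-lineage genes (6.11%, and 20.0% of 70). The study made these lists from the expression of sorted progenitors, not from these cells. In the B-lineage list, 11 of 12 domains were wider in 230-238, against 76.4% of all domains, and the widest were those of Lef1, Plekha2 (5146 bp in Scid.adh.2C2 and 9173 bp in 230-238), the mitochondrial carrier Ucp2 (4748 and 6360 bp) and Lrmp (3907 and 4698 bp). In the T-lineage list, 5 of 14 were wider in 230-238, and the widest were 1190002N15Rik (7055 and 6320 bp), the prostaglandin receptor Ptger4 (6092 and 6539 bp), Socs3 and the receptor P2ry10 (4708 and 4091 bp). The list members that are restricted in expression thus included some with wide H3K4me3 in the line of the other lineage.

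Among the lineage markers, Lck, the proximal kinase of the T cell receptor, had 3322 bp in Scid.adh.2C2 and 2733 bp in 230-238, just outside the width limit. The surrogate light chain gene Vpreb1 had 2127 and 2397 bp, in a region that held start sites of more than a single protein-coding gene. Rag1, the recombinase subunit, had 3556 bp in Scid.adh.2C2 and no promoter peak in 230-238. Ighm, the immunoglobulin heavy chain constant gene, was in the B-lineage list and lay at a domain of 3647 bp in Scid.adh.2C2 and 4246 bp in 230-238, with fold enrichments of 12.1 and 27.5. Rag1 and Ighm are named after their values were seen.

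Small RNA genes also started inside the domains, 61 of 2202 annotated miRNA genes (2.77%) in 44 domains and 68 of 1507 snoRNA genes (4.51%) in 36. Both shares were lower than the 6.54% of protein-coding genes with a start site inside a domain. The miRNAs named here were chosen after their values were seen. RefSeq mature sequences (GRCm38.p6) were matched to 30 miRNA genes in 21 of the domains. Those below come from 5 domains and are shown with the seed, bases 2 to 8, in capitals, to group them by shared seed.
miR-15b-5p: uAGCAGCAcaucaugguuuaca
miR-16-5p: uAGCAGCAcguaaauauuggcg
miR-106a-5p: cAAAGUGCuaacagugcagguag
miR-20b-5p: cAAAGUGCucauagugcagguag
miR-92a-3p: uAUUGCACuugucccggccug
miR-363-3p: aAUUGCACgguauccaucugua
miR-21a-5p: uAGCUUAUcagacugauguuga
miR-142a-3p: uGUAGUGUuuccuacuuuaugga
let-7i-5p: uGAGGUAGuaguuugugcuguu
The pair of miR-15b and miR-16 shared the seed AGCAGCA, miR-106a and miR-20b AAAGUGC, and miR-92a and miR-363 AUUGCAC. Mir15b and Mir16-2 lay on chromosome 3 in 1 domain of 5186 bp in Scid.adh.2C2 and 8385 bp in 230-238, and the 6 genes of the cluster from Mir106a to Mir363 on the X chromosome in 1 domain of 3606 and 5008 bp. The domain with Mir21a on chromosome 11, which reached 6345 and 9159 bp, lay at internal start sites of Vmp1. Mir142, expressed throughout blood cells, had 4948 and 6570 bp, and Mirlet7i 4016 and 5688 bp. Each of these 5 domains was wider in 230-238, as were 76.4% of all domains. Mir17hg, the host transcript of the paralogous cluster on chromosome 14, had a domain of 3408 and 4191 bp.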

How the data were processed

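The H3K4me3 ChIP-seq reads were trimmed by the authors with Trim Galore (0.6.7), mapped to mm10 (GRCm38) with Bowtie2 (2.4.4) and turned into peaks with MACS2 (2.2.7.1) in narrow mode at a q threshold of 0.05, a mode that can split a wide mark into several peaks. The 2 ChIP libraries of a line were combined at an irreproducible discovery rate (IDR) of 0.05, and 1 narrowPeak list was deposited per line. As deposited, a peak holds a fold enrichment over the background of MACS2 (a ratio), −log10 p values and a scaled IDR score. Read counts, and with them depth, are not in the lists used here.

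Overlapping peaks were merged and assigned to GENCODE vM21 start sites with Python 3.11.15 and pandas 2.3.3, and region sequence was read from RefSeq GRCm38.p6 with pysam 0.24.0. Where a line had several peaks in a region, their widths were added and the highest fold enrichment was kept. The members and the gene lists were chosen with earlier results of these data known. Genes named from the domains were the 12 widest by the smaller sum, the 5 of highest fold enrichment in each line, 3 on either side of each limit, all lymphoid factors and lineage markers at a domain, and the 4 widest of every other list; others are marked as named after their values were seen. A few of the genes so chosen are not reported here. With 1 list per line no test was possible. On simulated peak lists the rule recovered 404 of 404 planted domains and called 0 of 1596 others. The domains were planted by the limits of the rule itself and without noise. This outcome was therefore fixed by the set-up, and it checks the code and not the performance of the rule on real peaks. The effects of 13 alternative settings are given at the end. All 6 samples were assigned from their titles, and the input of each line served the authors as the control in peak calling.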

Additional observations from a re-analysis of the deposited data

How the results depend on the processing

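The 13 alternatives changed the window around the start site, the start sites used, the limits on width and ratio, the peaks admitted and the way widths were added. The number of domains stayed within 1.5 times of 1169 in 11 of them. It was 2254 with a minimum of 2500 bp and 329 with a minimum of 4000 bp. The median log2 width ratio kept its sign in all 13, at 0.11 with the minimum of 4000 bp, the ratio limit of 1.5 or the widest single peak per line (0.110896, 0.11293 and 0.106618), and 0.17 with peaks within 1000 bp merged. The share of lymphoid factors at a domain fell to 13.2% with the minimum of 4000 bp, where 1.91% of all protein-coding genes had one, and lay between 22.1% and 36.8% otherwise. The observed to expected CpG ratio ranged from 0.553 to 0.588 and the share of the domain downstream of the start from 70.7% to 75.1%. In alternatives chosen after seeing the data, the share of single-gene domains reaching farther downstream than upstream, 91.1% in Scid.adh.2C2 and 91.6% in 230-238, was 59.8% and 65.5% from the most downstream start site and 89.1% and 87.8% in domains with 1 start site.

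No paired analysis was possible because the 2 libraries of each line were deposited as 1 combined list, and for the same reason none was left out in turn. Depth limits which peaks were called and how wide, and is unknown for these lists. Every width comparison between the lines therefore rests on 1 peak list each, and what the wider peaks of 230-238 owe to its libraries was not tested.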
